A study of Mus musculus with 18 samples.

Results

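In murine bone marrow (BM), 10 genes of the insulin-like growth factor (IGF) system were examined, out of the 20275 genes in the deposited transcript count matrix. They were chosen by name and not by their values, and comprise 5 binding proteins (Igfbp2, Igfbp3, Igfbp4, Igfbp5 and Igfbp7), 2 ligands (Igf1 and Igf2) and 3 receptors (Igf1r, Igf2r and Insr). The study asked when hematopoietic stem and progenitor cells (HSPCs) and a stroma able to support them are found in BM. Single-cell transcripts and antibody tags (CITE-Seq) were counted in cells of C57B6/J mice at embryonic day (E) 16.5, E18.5, postnatal day (P) 0 and in adults. At each stage, CD45+Lineage-c-Kit+ cells (HP, for hematopoietic progenitors) and CD45-Ter119- cells (stroma) were sorted. E16.5 HP had 2 libraries and every other combination of stage and sort had 1. Each library pooled several mice or litters, so spread between animals was not measured. The p-values below reflect only the spread between these libraries, which the tests pool over genes. Fetal and newborn BM came from the whole skeleton without the head, whereas adult cells came from crushed tibias, femurs, pelvis and spine, so that stage and bone site cannot be told apart in either sort. In all, 56201 cells were analysed (20982 HP and 35219 stroma), in 140 clusters defined by stage and the annotation code deposited with the cells.

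IGF-I and IGF-II are secreted growth factors that act mainly through the type 1 receptor, encoded by Igf1r, a tyrosine kinase closely related to the insulin receptor, encoded by Insr. The receptor encoded by Igf2r carries no kinase, and takes up IGF-II for degradation in lysosomes, where it also delivers mannose 6-phosphate tagged enzymes. Secreted binding proteins hold the ligands in plasma and in matrix, lengthen their life, and either block or favour their access to the receptor, and proteases that cut the binding proteins release the ligands. The IGFs are well known as growth factors of cartilage and bone, and Igf2 is transcribed mainly from the paternal chromosome, next to H19.

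The libraries held 560 to 14084 cells and 13974733 to 194892476 transcripts counted by unique molecular identifiers (UMIs), with a median of 6747 (adult HP) to 23291.5 (E16.5 HP 1) UMIs per cell. Values are given as counts per 1000000 (CPM) of the UMIs summed over the cells named, with exact Poisson 95% intervals, which cover counting error only. In such sums, fewer cells of a type and less RNA per cell cannot be told apart. Of 54831 cell barcode sequences, 1102 (2.01%) were found in more than 1 library, and these took up 59.6% of the E16.5 HP 1 cells, 13.2% of adult HP, 12.2% of E18.5 HP and 1.34% to 5.06% of the others. Of the barcodes that E16.5 HP 1 shared with adult HP, 330 in number, the median cell held 30840 UMIs in the former and 668 in the latter. Shallower copies made up 694 adult HP cells (11.6%). The tests between the sorts and of HSPC clusters, the stage ratios of whole stroma and the highest cluster of each member were therefore also obtained without the shallower copies, which was not done for the other results. Summed markers of all blood cells were 984 to 2905 CPM in HP and 1.61 to 2.08 CPM in stroma, and summed fibroblast markers were 3.38 to 4.35 CPM in HP and 4794 to 22633 CPM in stroma. The study reports that contaminating blood cells were taken out of the stromal data it displayed. It gives more stromal cells at each stage than were deposited. Low blood markers in stroma therefore need not come from the sort alone. The part of this removal in differences between the sorts was not tested.

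Positions are those of the GENCODE M21 annotation on mouse GRCm38. Igfbp2 (chr1:72824503-72852474, plus strand) and Igfbp5 (chr1:72857932-72874884, minus strand) lie tail to tail with 5457 bases and 0 annotated genes between them. Igfbp3 (chr11:7206086-7213923, minus) and Igfbp4 (chr11:99041244-99054392, plus) share a chromosome, and Igfbp7 lies at chr5:77349240-77408041 on the minus strand, where it overlaps Polr2b on the plus strand. The ligand genes are at chr10:87858265-87937042 (Igf1, plus) and chr7:142650766-142666816 (Igf2, minus). Igf1r (chr7:67952827-68233668, plus) is on the chromosome of Igf2, Igf2r (chr17:12682406-12769664, minus) overlaps the antisense RNA gene Airn, and Insr is at chr8:3122061-3279617 on the minus strand. All 10 are annotated as protein-coding.

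The 250 bases before the annotated start are shown for 4 members, namely the 3 binding proteins that were over 2-fold higher in adult than in P0 stroma and the receptor that rose in HSPC clusters. They were taken from RefSeq on GRCm38.p6, in which 9 of the 10 members have an entry. They cover chr11:99040994-99041243 (Igfbp4, plus strand), chr1:72874866-72875115 (Igfbp5, minus), chr5:77408046-77408295 (Igfbp7, minus) and chr7:67952007-67952256 (Igf1r, plus), each read 5′ to 3′ on the gene's own strand. Capitals mark TATAAA, the core of a TATA box, and GGGCGG, the core of a GC box, on either strand.
Igfbp4: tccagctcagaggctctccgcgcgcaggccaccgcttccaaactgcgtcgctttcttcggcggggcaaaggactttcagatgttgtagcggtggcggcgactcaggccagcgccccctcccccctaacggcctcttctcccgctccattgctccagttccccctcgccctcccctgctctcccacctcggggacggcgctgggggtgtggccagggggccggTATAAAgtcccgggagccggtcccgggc
Igfbp5: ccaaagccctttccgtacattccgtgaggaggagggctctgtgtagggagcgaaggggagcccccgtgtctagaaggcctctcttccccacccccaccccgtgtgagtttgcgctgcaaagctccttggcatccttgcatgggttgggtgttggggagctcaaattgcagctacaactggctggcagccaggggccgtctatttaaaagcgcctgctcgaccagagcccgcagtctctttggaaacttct
Igfbp7: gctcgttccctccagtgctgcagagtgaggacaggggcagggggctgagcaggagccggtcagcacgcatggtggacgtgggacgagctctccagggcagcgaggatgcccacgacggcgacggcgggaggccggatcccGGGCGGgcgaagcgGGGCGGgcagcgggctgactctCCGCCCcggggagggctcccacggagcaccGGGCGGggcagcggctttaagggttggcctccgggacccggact
Igf1r: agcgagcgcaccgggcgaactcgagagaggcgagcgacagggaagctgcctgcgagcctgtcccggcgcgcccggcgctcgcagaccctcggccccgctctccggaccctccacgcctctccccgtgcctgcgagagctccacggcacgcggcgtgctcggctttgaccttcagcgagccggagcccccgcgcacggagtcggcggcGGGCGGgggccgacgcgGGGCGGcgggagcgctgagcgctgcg
The Igfbp4 stretch held 1 TATAAA, 28 bases before the start, and no GGGCGG, whereas that of Igfbp7 held 4 GGGCGG and that of Igf1r 2, 43 and 26 bases before the start. Neither motif was in the Igfbp5 stretch. Of 32851 promoters of the same length, 12.4% held TATAAA and 32.7% held GGGCGG on either strand. CG pairs numbered 22 in the Igfbp4 stretch, 10 in Igfbp5, 26 in Igfbp7 and 42 in Igf1r, with a median of 6 and quartiles of 2 and 16 over all promoters. The 3 binding proteins that were higher in adult stroma thus shared neither motif. All 3 were above the median in CG pairs, and Igfbp4 and Igfbp7 were also above the upper quartile. These matches describe letters and are not evidence of binding.

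Most of the system was transcribed in stroma. Igfbp2, Igfbp3, Igfbp5, Igfbp7, Igf1, Igf2 and Igf2r were higher in stroma by 4.06 to 9.47 on the log2 scale as fitted over all stages, whereas the fitted difference was 1.43-fold to 1.85-fold for Igfbp4, Igf1r and Insr. In a test over all 9 libraries with stage as a block, 9 of 10 members were higher in stroma, where 32.0% of 18407 genes tested were higher and 25.8% were lower (edgeR quasi-likelihood test, Benjamini-Hochberg adjusted p under 0.05). Insr was the exception (log2 fold change 0.52 ± 0.21, SE, adjusted p = 0.0719 by edgeR).

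Igfbp2, a binding protein with a preference for IGF-II, was at 62.7, 36.1, 85.4 and 4.08 CPM in E16.5, E18.5, P0 and adult stroma, and at 0.313 CPM or less in every HP library, with 0 counts in adult HP. The sorts did not overlap, and the difference was 9.47 ± 0.68 on the log2 scale (SE, adjusted p = 6.9e-05, edgeR). This fitted value is set against at most 30 UMIs in any HP library and is not a measured ratio. Igfbp3, which carries most of the circulating IGF in a complex with the acid-labile subunit, was at 32.6, 57.2, 81.1 and 37.2 CPM in stroma in the same order, and 0.0169 to 0.282 CPM in HP. Its highest HP library was thus far below its lowest stromal library (log2 fold change 9.10 ± 0.76, SE, adjusted p = 0.000123, edgeR). The fit is again set against few HP counts, at most 27 UMIs in a library, and is not a measured ratio.

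Igfbp4, which is cut by the protease PAPP-A, was the only binding protein among the members with substantial transcript in HP. It was at 87.4 and 81.3 CPM in the E16.5 HP libraries and 162, 165 and 141 CPM in E18.5, P0 and adult HP, against 186, 156, 210 and 485 CPM in stroma. The sorts overlapped at E18.5, where HP was the higher of the pair, and the difference was small (log2 0.89 ± 0.26, SE, adjusted p = 0.0247, edgeR). This call was lost when any of 6 of the 9 libraries was left out, with edgeR adjusted p up to 0.0971 without E16.5 stroma.

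Igfbp5, a binding protein that attaches to bone matrix, was at 229.5, 173, 232 and 1249.8 CPM in stroma and 0.204 to 1.07 CPM in HP. Igfbp7, which binds IGFs weakly and is a secreted protein of vessels and matrix, was at 289.8, 548, 868 and 2831 CPM in stroma and 0.644 to 2.94 CPM in HP. Both were highest in adult stroma, and neither overlapped between the sorts (log2 fold changes 9.27 ± 0.70 and 8.62 ± 0.76, SE, adjusted p = 8.5e-05 and 0.000155, edgeR).

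The ligands also came from stroma. Igf1 was at 195.7, 133, 213 and 279.9 CPM in E16.5, E18.5, P0 and adult stroma, and at 18.7 and 2.37 CPM in the E16.5 HP libraries and 5.74, 1.68 and 0.777 CPM in the later HP libraries. The E16.5 HP libraries thus stood apart from each other, and the lower of them was close to the later stages. They also differed in their mix of cells. The cluster coded Mono/Mast made up 161 of 560 cells in library 1 and 142 of 4752 in library 2, and TCell2 held 1 and 486 cells. Igf2, the fetal growth factor, was at 130.2, 113 and 124.5 CPM in E16.5, E18.5 and P0 stroma but at 0.250 CPM (23 UMIs) in adult stroma, and at 1.01 CPM or less in HP. The difference between the sorts was 6.00 ± 0.99 for Igf1 and 8.95 ± 0.97 for Igf2 on the log2 scale (SE, adjusted p = 0.00225 and 0.00039, edgeR).

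Of the receptors, Igf1r was at 29.3 and 28.7 CPM in the E16.5 HP libraries and 76.1, 68.9 and 66.0 CPM in E18.5, P0 and adult HP, beside 79.7, 102, 94.0 and 72.8 CPM in stroma. The E18.5 HP library lay above adult stroma, and the difference was 0.75 ± 0.26 on the log2 scale (SE, adjusted p = 0.0425, edgeR). This call did not hold without a stage term (adjusted p = 0.0702) or without any of the 7 libraries of E16.5, E18.5 and P0, the edgeR adjusted p reaching 0.173 and the log2 difference falling to 0.39 without E16.5 stroma. Igf2r was at 225, 268, 232 and 68.6 CPM in stroma and 9.63 to 14.1 CPM in HP, with no overlap (log2 4.06 ± 0.41, SE, adjusted p = 0.000286, edgeR). Insr was at 17.6, 22.4, 22.4 and 16.1 CPM in stroma and 9.10 to 17.4 CPM in HP, where the groups overlapped. Its call depended on the method, with an adjusted p of 0.0230 by DESeq2 and of 0.0249 and 0.0228 by edgeR without adult HP and without adult stroma. Leaving out the shallower copies of shared barcodes changed no call among the members.

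**Figure D1:**
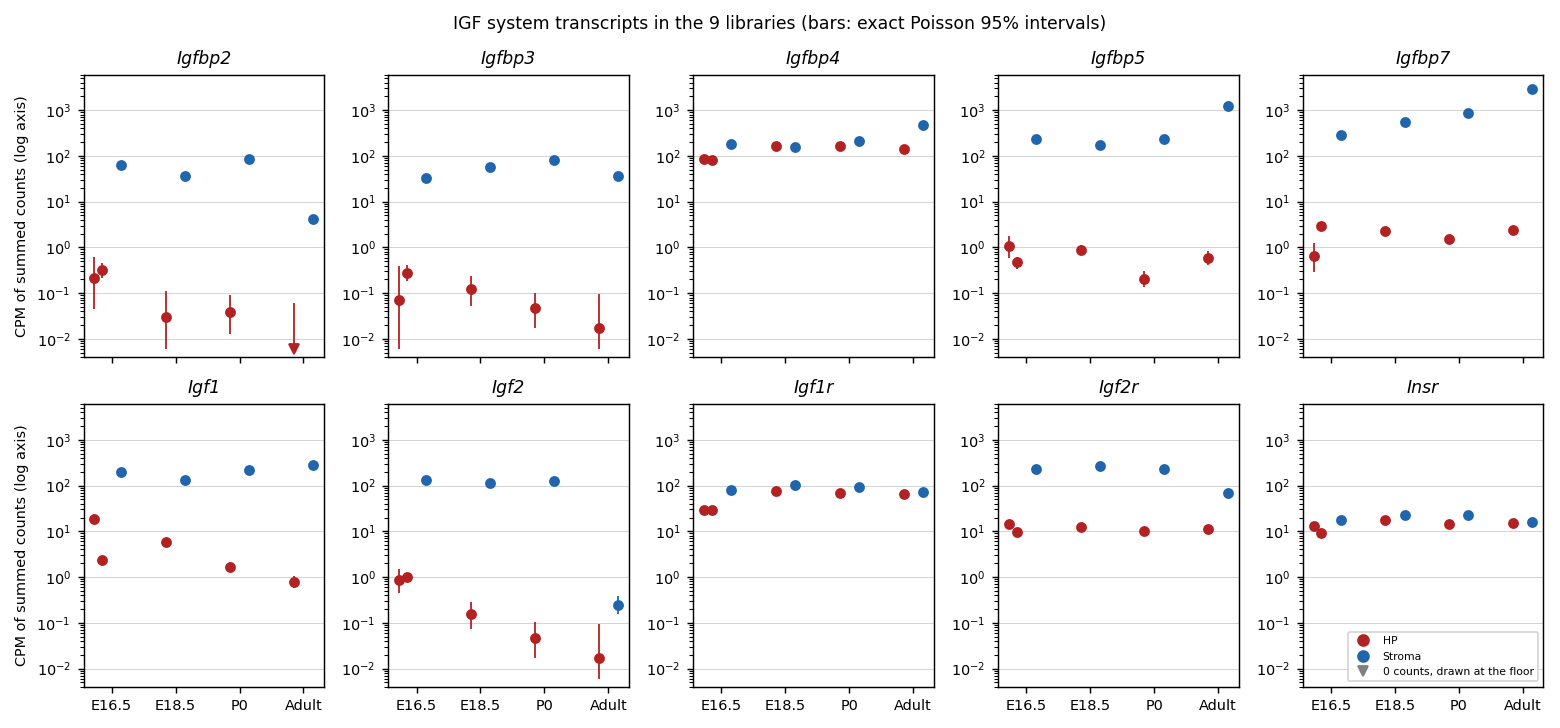
Level of each IGF system gene in the 9 libraries, as CPM of summed counts on a log axis by stage, with HP in red and stroma in blue. Bars are exact Poisson 95% intervals, and triangles mark 0 counts. HP points lie far below stroma for Igfbp2, Igfbp3, Igfbp5, Igfbp7, Igf1, Igf2 and Igf2r, while Igfbp4, Igf1r and Insr are at similar heights in both.

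The rest of the pathway was examined by lists fixed by gene name. Beside the 32.0% of all genes that were higher in stroma and 25.8% that were lower, 3 of 3 other binding proteins were higher, namely Igfbp6 (log2 6.79), Igfals, which encodes the acid-labile subunit (5.44), and Igfbpl1 (4.75). Of the proteases of binding proteins and their inhibitors, the proteases Pappa (9.53), Pappa2 (10.10) and Htra1 (9.28) were higher, with at most 5 counts of Pappa and 2 of Pappa2 in any HP library, and the stanniocalcins Stc1 and Stc2, which inhibit the pappalysins, were not called (edgeR adjusted p = 0.118 and 0.114). Of 14 adaptors and signal carriers, 11 were higher, with the adaptor genes Irs1 (9.20), Irs2 (3.84) and Grb10 (4.00) among them. Foxo3 and Pik3r1 were among those not called. Igfals, Igfbpl1, Pappa, Pappa2, Irs1 and Irs4 passed the filter on low counts only through stroma, so their calls are not counted as support for a difference. Their fitted values are set against HP counts near 0 and are not measured ratios. Igfbpl1 also had only 1 UMI in E18.5 stroma and 2 in adult stroma. Among regulators of Igf2 RNA, H19 (6.45) and Igf2bp2 (2.14) were higher in stroma, Igf2bp3 was lower (-1.44, adjusted p = 0.00628, edgeR) and Igf2bp1 was not called. Ins2 and Insrr were at 0.103 CPM or less in every library.

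Stroma had 1 library per stage, so its stages were compared without a test, and a 2-fold difference among genes with at least 50 counts is used as a description. In whole stroma, none of the 10 members differed 2-fold between E18.5 and E16.5, beside 6.38% of all genes, and only Igfbp2 was 2-fold higher at P0 than at E18.5 (36.1 to 85.4 CPM), beside 3.50% of genes. Without clusters coded UD, left out after the data were seen, the P0 value was 51.1 CPM (1.42-fold), and in F clusters the values were 136.1 CPM at E18.5 and 132.7 CPM at P0. Within classes more differed between E18.5 and E16.5. Igfbp3 (3.41-fold) and Igfbp7 (2.17-fold) were higher at E18.5 in the clusters coded F, beside 3.43% of genes, and Igfbp3 (172 to 843 CPM, 4.89-fold) and Igfbp7 (2.16-fold) were higher in the endothelial clusters, beside 8.49%. Igfbp2 (2.93-fold) and Igfbp5 (2.16-fold) were lower in the clusters coded C, beside 1.63%. From E16.5 to P0 in whole stroma, Igfbp3 was 2.49-fold and Igfbp7 3.00-fold higher (2.96 to 3.03), as were 6.15% of genes. Both were also higher in F clusters (3.53-fold and 3.52-fold), beside 6.23% of genes, and in C clusters (3.27-fold and 2.45-fold), beside 5.01%. In the endothelial clusters (coded ECs, and SECs and AECs in adults), Igfbp3 was 4.03-fold and Igfbp5 2.19-fold higher (60.9 to 133 CPM), beside 11.3% of genes, and Igfbp7 was 1.98-fold higher. The codes F and C are used here as deposited, and several of their clusters carried fibroblast or chondrocyte markers. The set of clusters under each of these letters differs between stages.

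Adult stroma differed from P0 stroma in most of the system. Igfbp4 was 2.31-fold (2.28 to 2.34), Igfbp5 5.38-fold (5.32 to 5.44) and Igfbp7 3.26-fold (3.24 to 3.28) higher in adults, so 3 of 10 members were higher where 17.6% of all genes were. Igf2 was 497-fold lower (23 against 24266 counts), Igfbp2 20.9-fold (-4.39 on the log2 scale, and -3.65 without clusters coded UD), Igf2r 3.38-fold and Igfbp3 2.18-fold lower, so 4 of 10 were lower where 11.0% of all genes were. Igf1 (1.31-fold), Igf1r (0.775-fold) and Insr (0.718-fold) were within 2-fold. The median ratio of all genes was 0.176 on the log2 scale.

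These ratios partly changed within classes of deposited code. No F or C cluster of adults shares its full code with one of P0, so stage and the kind of cell so coded cannot be told apart. In F clusters, Igfbp5 (3.23-fold) and Igfbp7 (4.91-fold) were higher in adults, 2 of 10 members beside 15.5% of genes, but Igfbp4 was not (543 against 409 CPM). There Igfbp2 was 265-fold lower (132.7 against 0.501 CPM) and Igfbp3 7.64-fold lower, which with Igf2 (548-fold) and Igf2r (3.24-fold) made 4 of 10 lower, beside 13.1% of genes. In C clusters, only Igf1 was higher (11.3 to 48.6 CPM, 4.32-fold), beside 12.7% of genes. Igfbp2, Igfbp3 (19.9-fold), Igf2 (721-fold), Igf2r (3.68-fold) and Insr (3.16-fold) were lower, beside 13.4% of genes, and Igfbp5 (0.941-fold) and Igfbp7 (1.19-fold) differed little.

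In endothelial clusters, Igfbp5 (4.26-fold), Igfbp7 (2.55-fold) and Insr (25.4 to 109 CPM, 4.29-fold, 3.29 to 5.69) were higher in adults, beside 18.6% of genes. Igfbp3 (2.44-fold), Igf2 (2 counts in adults, a ratio of 0.000899 to 0.0275) and Igf2r (3.08-fold) were lower, beside 3.93% of genes. The adult values pool SECs and AECs, so they depend on the mix of both. Insr was higher in adult SECs than in AECs, and Igfbp3 was higher in AECs. Igf2 and Igf2r were thus lower in adults in whole stroma and in each of the classes examined, and Igfbp2 was lower in F and C clusters. In endothelial cells Igfbp2 went apart, from 32.3 CPM in P0 ECs to 80.3 CPM in adult SECs and 1.25 CPM (3 UMIs) in adult AECs.

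**Figure D2:**
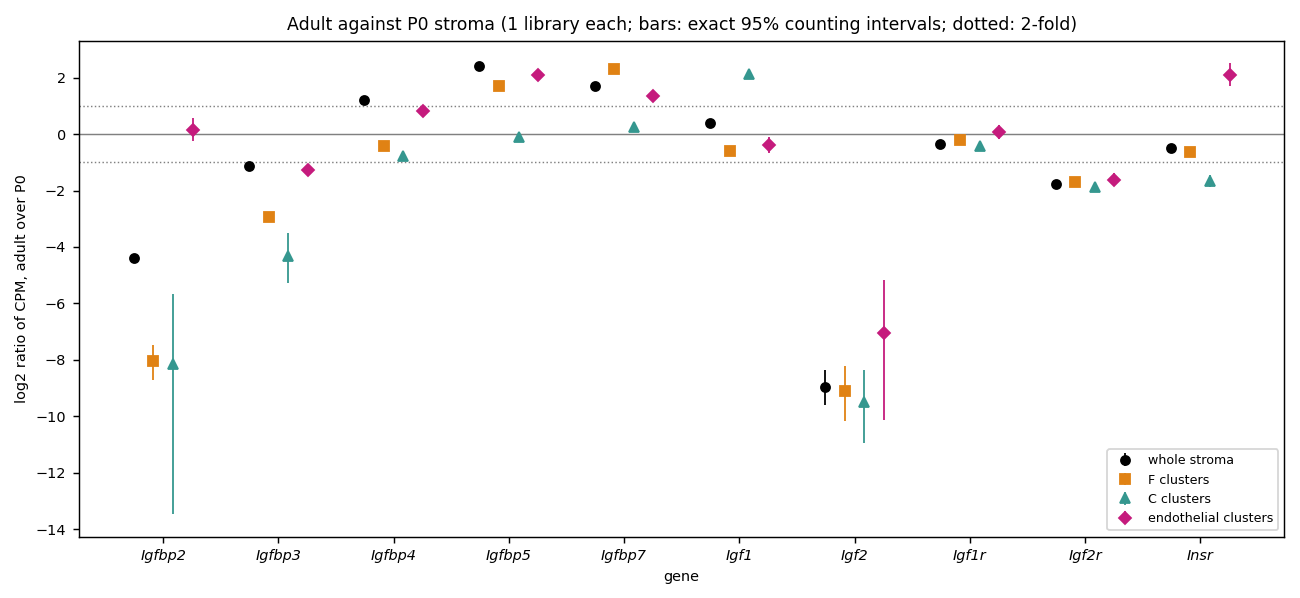
Log2 ratio of CPM in adult over P0 for each gene, in whole stroma and in F, C and endothelial clusters (1 library per stage). Bars are exact 95% counting intervals and dotted lines mark a 2-fold difference. Igf2 lies far below 0 in every class, and Igfbp5 is above 1 in F and endothelial clusters but near 0 in C clusters.

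Elsewhere in the pathway, where 17.6% of all genes were higher and 11.0% lower in adult than in P0 stroma, Igfbp6 was 10.8-fold higher. The other 2 of the 3 other binding proteins were lower, Igfals at 4.08 and 0.914 CPM in P0 and adults and Igfbpl1 at 1.30 and 0.0218 CPM (2 UMIs in adults, a ratio of 0.00201 to 0.0610). The protease gene Htra1 was 2.15-fold higher. Of 5 protease and inhibitor genes, 4 were within 2-fold, with Pappa at 18.3 CPM in P0 and 32.7 CPM in adult stroma. Irs1 (2.03-fold) and Grb10 (3.07-fold), an adaptor that restrains receptor signaling, were lower in adults, and Grb14 (4.15-fold) and Foxo1 (3.42-fold) were higher, among 4 lower and 2 higher of 14 adaptors and signal carriers. All 4 regulators of Igf2 RNA were lower in adults, with H19 28.7-fold (2750 to 95.7 CPM), Igf2bp1 92.7-fold, Igf2bp2 7.11-fold and Igf2bp3 9.92-fold lower. They were also 4 of 4 lower in F clusters, beside 13.1% of genes, and in C clusters, beside 13.4%.

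The levels of the binding proteins were put in order over 65 stromal clusters of at least 50 cells. Igfbp4 was highest in adult CXCL12-abundant reticular cells (coded CARs), a perivascular source of niche factors, at 5809 CPM (5723 to 5896). These 359 cells were 5.73% of the adult library and held 39.1% of its Igfbp4 UMIs. All 5 CAR markers were at least 2-fold higher in them than in the rest. Adult sinusoidal endothelial cells (SECs, 1512 CPM), E18.5 F3ii (1038 CPM) and adult P4 (963 CPM) followed, each apart from the next by its interval, and P0 F3i, the highest at P0, was at 712 CPM. After thinning each cell to 1000 UMIs, 95.5% of CARs (median 7185 UMIs before thinning, 99.7% unthinned) held an Igfbp4 UMI, against 1.75% of cells of the chondrocyte-marked cluster C9 (median 19966 UMIs, 21.4% unthinned).

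Igfbp5 was likewise highest in adult CARs, at 5754 CPM, followed by adult F10 (2878 CPM) and F13 (2497 CPM), with no overlap between these intervals. The largest contributions to adult Igfbp5 came from F8, with 29.4% of the UMIs in 18.0% of the cells (2316 CPM), and F10, with 27.3% in 14.0%. F8 carried 4 of 4 markers of PaS cells, the PDGFRA and Sca-1 positive stromal progenitors, and F10 was led by Npy, Slurp1 and Angptl7. Before adulthood, the highest clusters were E16.5 F2 (843 CPM), with 3 of 5 osteolineage markers, and P0 P2 (777 CPM). Adult cells coded Osteo, with 5 of 5 osteolineage markers, were at 1420 CPM.

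Igfbp7 was highest in adult P4 (7107 CPM, 6980 to 7236), which carried 4 of 5 pericyte and smooth muscle markers, then in F10 (6572 CPM), F12 (5206 CPM) and arterial endothelial cells (AECs, 4949 CPM). The next clusters, F9 (3500 CPM) and CARs (3431 CPM), did not differ beyond counting error. In endothelial cells it was at 825, 1785 and 1638 CPM at E16.5, E18.5 and P0, and P0 C2ii (2182 CPM) was the highest cluster before adulthood.

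Igfbp3 was highest in endothelial cells at E18.5 (843 CPM, 94 cells) and P0 (694 CPM), and in adult AECs (440 CPM), which held 31.0% of adult Igfbp3 UMIs in 6.38% of the cells. These endothelial clusters carried 5 of 5 endothelial markers. At E16.5, endothelial cells were at 172 CPM. Among other cells, E18.5 F3ii was at 328 CPM, P0 F2 at 284 CPM and adult CARs at 155 CPM.

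Igfbp2 differed from the other binding proteins in that its highest clusters were small and undefined. P0 UD4, only 75 cells and 0.533% of the library, was at 7454 CPM and held 40.6% of P0 stromal Igfbp2 UMIs. Its leading genes were Igfbp2 itself, Lcn2, Isl1, Prlr, Hoxd13 and the keratin gene Krt8. E16.5 UD1 (62 cells, 1691 CPM, 14.8% of UMIs) was led by the neuronal genes Rtn1, Tubb3 and Stmn2. Neither carries a cell type code, and both passed the CD45-Ter119- sort. Among coded clusters, P0 F7 (266 CPM), E16.5 F3 (209 CPM) and E18.5 F2 (189 CPM) were highest, and the last of these held 48.0% of E18.5 Igfbp2 UMIs. In adults the highest was SECs, at 80.3 CPM.

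**Figure D3:**
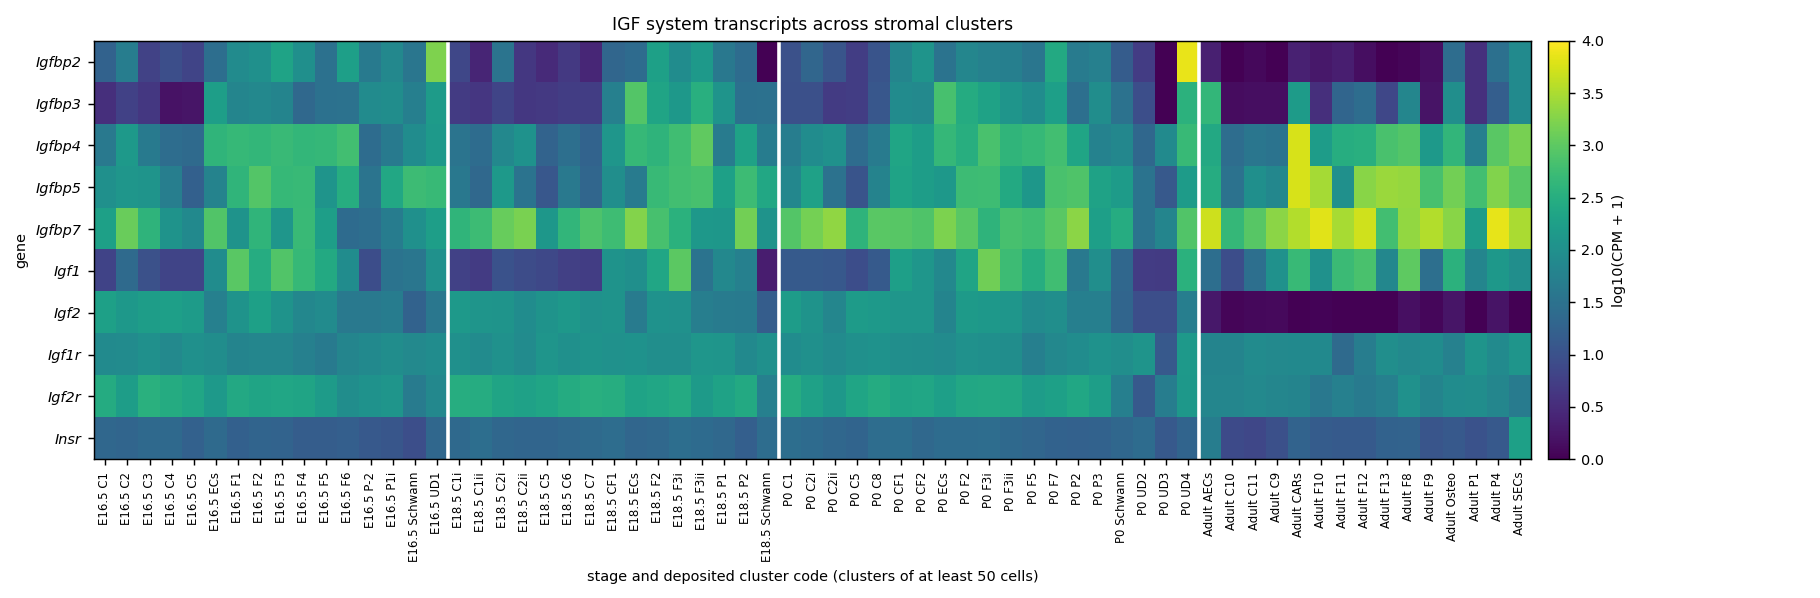
Heat map of each gene (rows) in stromal clusters of at least 50 cells (columns, by stage and deposited code), coloured by log10(CPM + 1). White lines separate the stages. Igf2 is near 0 in every adult cluster, and Igfbp5 and Igfbp7 are brightest in adult clusters.

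The ligands contrasted in how they were spread over stroma. Clusters coded F held 94.8%, 93.2% and 91.1% of Igf1 UMIs at E16.5, E18.5 and P0, in 34.7%, 24.6% and 27.5% of the cells. In adults they held 78.3% in 56.6% of the cells, at 438.5 CPM, and CARs were higher, at 496 CPM. The highest clusters of each stage included P0 F3i at 1362 CPM (45.5% of UMIs in 6.60% of cells), adult F8 at 1006 CPM (56.9% in 18.0%), E18.5 F3i at 987 CPM (76.6% in 11.5%) and E16.5 F1 at 935 CPM (44.9% in 10.3%). P0 F3i, F1 and F8 each carried at least 3 of 4 PaS markers. P0 F3i was led by the muscle genes Ckm, Myl1 and Acta1, whose part in the Igf1 level was not tested. Igf2 UMIs were counted in every fetal and neonatal class of clusters, although the part of free RNA in the lower values was not tested, with cluster medians of 98.2, 105.5 and 94.3 CPM at E16.5, E18.5 and P0. By class it was highest in C (165, 124 and 142 CPM at these stages), was 115, 101 and 119 CPM in F, and was lowest in Schwann cells (17.3, 14.3 and 19.1 CPM). Its highest clusters, E16.5 C1 (187 CPM, 180 to 195), F2 (183 CPM) and C4 (177 CPM), overlapped in their intervals. No adult cluster was above 0.83 CPM.

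Of the receptors, Igf2r followed the pattern of Igf2. It was highest in E16.5 C3 (341 CPM) and E18.5 C7 (329.7 CPM), with cluster medians of 192, 232, 191 and 66.5 CPM at E16.5, E18.5, P0 and adult, and adult clusters between 38.6 and 103 CPM. Igf1r ranged over stromal clusters from 12.1 to 139 CPM with a median of 87.5 CPM, and its highest clusters, P0 UD4 (139 CPM), E18.5 F3ii (126 CPM) and adult SECs (122 CPM) among them, did not separate by their intervals. Insr was concentrated in adult endothelium, with SECs at 188 CPM (168 to 208) and AECs at 48.2 CPM, and no other cluster above 27.1 CPM. The 194 SECs held 23.5% of adult stromal Insr UMIs. Thinned to 1000 UMIs, 16.5% of SECs (median 7118 UMIs, 63.9% unthinned) held an Insr UMI, against 0.279% of CARs (median 7185 UMIs, 14.5% unthinned).

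Over 135 clusters of both sorts, each member was set beside 6219 other genes by Pearson's r of log2(CPM + 10), as a description of points that share libraries and depth. Igf2 was most like Zim1 (r = 0.97), Dlk1 (0.95) and Nrk (0.94), and Igf2r most like Peg3, Plagl1 and Itm2a (each 0.93). Zim1, Dlk1, Peg3 and Plagl1 are, like Igf2 and Igf2r themselves, known imprinted genes in the mouse. Igf2 and Igf2r had an r of 0.88 with each other, and of 0.87 over stromal clusters alone.

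Among binding proteins, Igfbp7 was most like Bgn and Pam (each 0.94), Igfbp5 most like Prrx1 (0.92) and Col3a1 (0.91), Igfbp3 most like Phldb2 (0.88), and Igfbp2 most like Sfrp2 (0.81). Igfbp4, present in both sorts, had weaker likenesses, to Peak1 (0.65) and Cxcl12 (0.64), the niche chemokine. Igf1 was most like Nov (0.86) and Dpysl3 (0.84), whereas Igf1r (Id1, 0.65) and Insr (Fcho2, 0.68) had no close match. Igf1 and Igf1r, ligand and receptor, had an r of 0.16 (-0.23 over stromal clusters). Over stromal clusters alone, Igf1 and Igfbp4 had an r of 0.77, Igfbp4 and Igfbp5 of 0.72, and Igfbp5 and Igf2 of -0.42.

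In HP, Igf1r was highest in basophil and eosinophil clusters. It was at 319 CPM (294 to 346) in E18.5 Bas1 and 276 CPM in adult Eos/Bas4, each apart from the next, then at 219 CPM in E18.5 Neu2 and 203 CPM in E16.5 Eos/Bas1, which overlapped. P0 EosP (171 CPM), E18.5 Eos/Bas2 (168 CPM), P0 Eos/Bas3 (164 CPM) and P0 Bas2 (130 CPM) followed, beside a median of 45.0 CPM over 70 HP clusters. The E16.5 Eos/Bas1 value was 333 CPM in the 18 cells of library 1 and 162 CPM in the 79 of library 2. Mcpt8, Prss34 and Cd200r3, basophil genes, led these clusters, and Retnlg and Ltf led Neu2. The lowest levels were in adult Bcell4 (1.59 CPM, 1 UMI) and Bcell3 (3.72 CPM). Insr was also highest in Bas1 (70.9 CPM), followed by Neu2 (49.1 CPM).

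Igfbp4 in HP was highest, among clusters whose cells are not shallow, in E16.5 Eos/Bas1 (350 CPM), adult Mono4 (306 CPM), E16.5 Neu1 (306 CPM) and P0 MyP3 (256 CPM). It was not shared with Igf1r in the same way at every stage, since E18.5 Bas1, the highest for Igf1r, was at 4.29 CPM for Igfbp4. Igf1 in HP was mostly in a monocyte-marked cluster at E16.5, and clusters coded HSPC held 47 of 372 UMIs at E18.5 and 61 of 214 at P0. In E16.5 HP, 85.2% of its UMIs were in the cluster Mono/Mast, at 60.6 CPM in library 1 (161 cells) and 49.1 CPM in library 2 (142 cells), which carried 3 of 4 monocyte and macrophage markers. The undefined, shallow E16.5 cluster UD2 was at 101 CPM, and E18.5 Mono2 (88.2 CPM) and Mono1ii (80.1 CPM) were the highest of the named clusters, while no P0 cluster was above 28.6 CPM.

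Several stromal members in HP came from a few shallow clusters. E16.5 UD2, 65 cells with a median of 1049 UMIs and 5 of 5 fibroblast markers, held 72.7% of the Igfbp2, 85.7% of the Igfbp3 and 61.7% of the Igfbp5 UMIs of E16.5 HP. In adult HP, 56 cells coded Stroma, with a median of 555 UMIs, held 85.7% of Igfbp5 and 45.5% of Igfbp7 UMIs and were at 1464 CPM for Igfbp4. Of these, 51.8% had a barcode that another library shared. Without clusters that are undefined or named for the other sort, the log2 difference between the sorts was 10.05 for Igfbp2, 10.09 for Igfbp3, 10.05 for Igfbp5, 8.96 for Igfbp7 and 9.18 for Igf2. Without UD2 alone, E16.5 HP held only 9 Igfbp2 and 4 Igfbp3 UMIs. The values of these 2 genes are thus set against HP counts near 0. They are not measured ratios and are not counted as support for a difference.

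**Figure D4:**
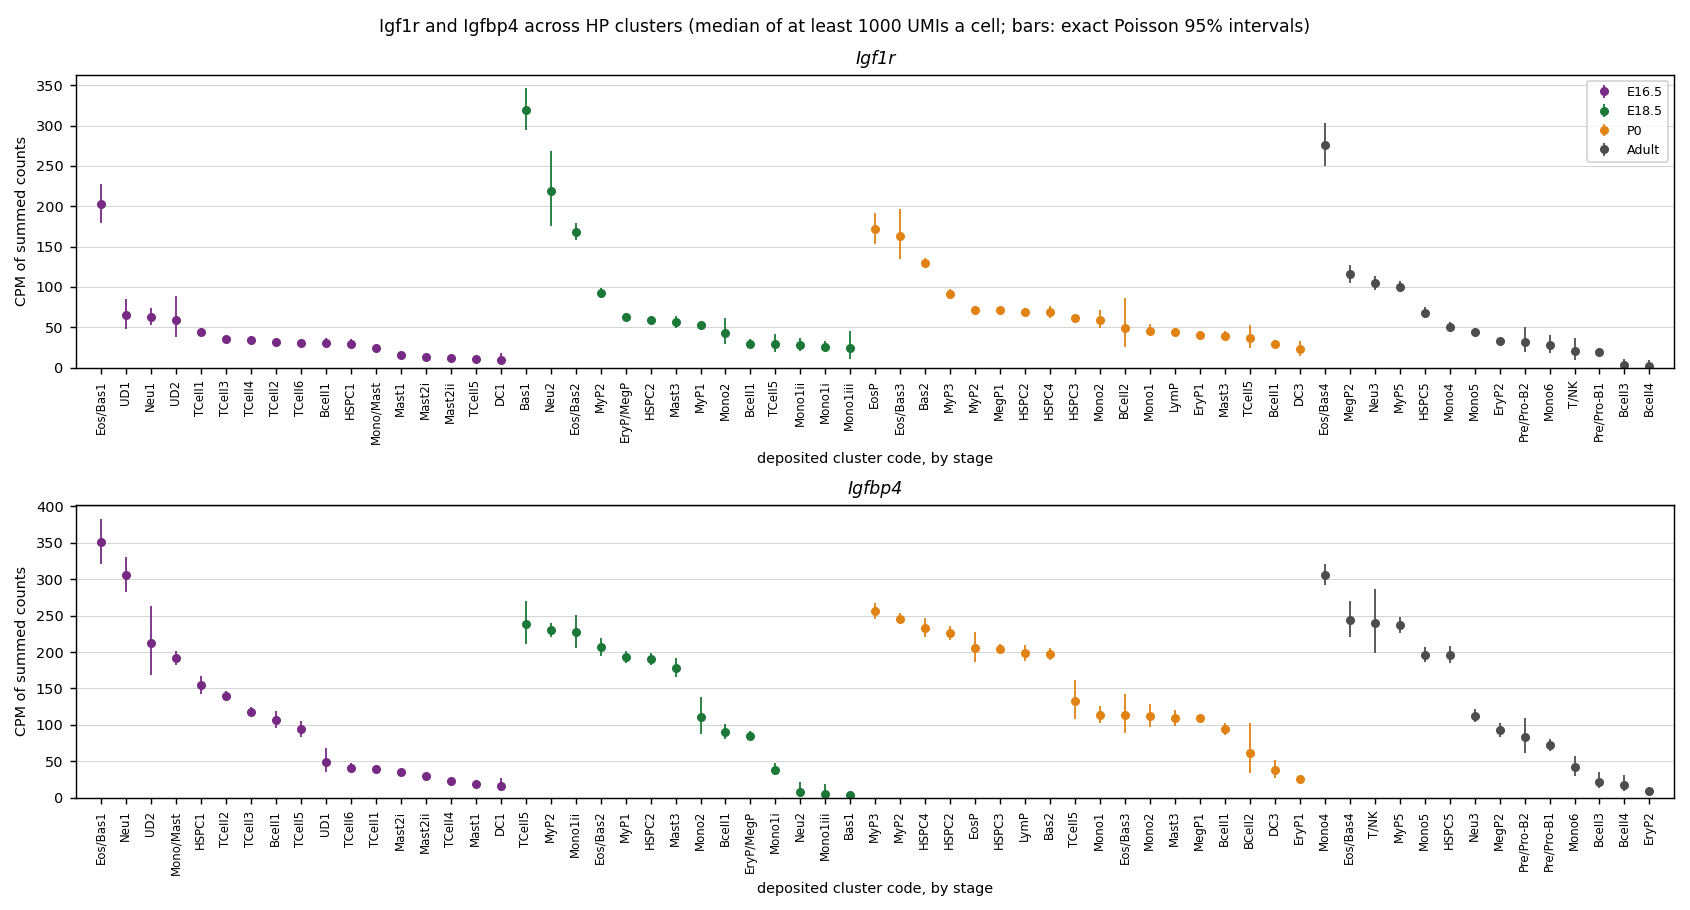
Igf1r (top) and Igfbp4 (bottom) in HP clusters with a median of at least 1000 UMIs, as CPM of summed counts, ordered within each stage and coloured by stage. Bars are exact Poisson 95% intervals. Basophil and eosinophil codes lead for Igf1r at each stage, and E18.5 Bas1 and adult Eos/Bas4 lie at 319 and 276 CPM.

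Across the stages in whole HP, P0 differed from the summed E16.5 libraries in 5 of the 8 members with enough counts. Igf1r (28.8 to 68.9 CPM, 2.40-fold) and Igfbp4 (82.0 to 165 CPM, 2.01-fold, 1.96 to 2.06) were higher, beside 10.9% of genes, and the Igfbp4 value lay at the threshold. Igf1 (4.44 to 1.68 CPM), Igf2 and Igfbp5 were lower, beside 11.1% of genes. Against E16.5 library 2 alone Igf1 was 1.41-fold lower and against library 1 alone 11.1-fold lower, and 3 members were past 2-fold against each library, of which only Igf1r was past it against both. Igfbp7, 1.78-fold lower at P0 against the sum, was 2.31-fold higher against library 1, which held 9 of its UMIs. Igf2 and Igfbp5 had under 50 counts in the libraries of some of these comparisons and were then not counted. Without UD2, left out after the data were seen, Igfbp5 was at 0.210 CPM at E16.5 beside 0.204 CPM at P0, on under 50 counts, and the other 4 members stayed past 2-fold. The share of cells with an Igf1r UMI after thinning was 2.76% and 2.60% in the E16.5 HP libraries and then 8.69%, 6.84% and 6.34% for E18.5, P0 and adult HP (34.6%, 35.9%, 46.8%, 60.9% and 34.6% unthinned).

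The comparison closest to the question of the study is that of the cells coded HSPC, of which E16.5 had 33 in library 1 and 165 in library 2, E18.5 had 388, P0 1505 and adults 629. Their Igf1r level was 50.3 CPM (36.3 to 68.0) in E16.5 library 1 and 23.7 CPM (18.7 to 29.7) in library 2. It was 59.6 CPM (54.9 to 64.5) for E18.5, 65.2 CPM (62.4 to 68.1) for P0 and 67.9 CPM (61.2 to 75.2) for adult HSPCs. Both E16.5 libraries were below the later stages, although the interval of the first of them, with 33 cells, reached the later values. Each stage was compared with E16.5 by edgeR with 1 residual degree of freedom, in which the lone libraries are assumed to vary like the E16.5 pair. That spread is pooled over all genes tested, so a p-value does not measure how far the E16.5 pair differed in the gene itself. Of the members, 7 of 10 passed the filter on low counts.

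Igf1r rose from E16.5 to adult HSPCs (log2 1.23 ± 0.40, SE, adjusted p = 0.0307, edgeR) and was the only member called, higher where 3.59% of 12163 genes tested were higher and 4.34% lower. The call remained without the shallower copies (edgeR adjusted p = 0.0338), but was lost by DESeq2 (log2 1.21, adjusted p = 0.361) and when all HP cells were summed (log2 1.37, edgeR adjusted p = 0.201). The values at P0 (0.99 ± 0.39, SE, adjusted p = 0.155, edgeR) and E18.5 (0.80 ± 0.40, SE, adjusted p = 0.410, edgeR) did not pass. At P0, 0 members were called by edgeR or DESeq2, beside 5.20% of genes called either way by edgeR. Igf1 and Igf1r were at an unadjusted edgeR p under 0.05, as were 1437 of the 12163 genes tested. Igf1 passed the filter on low counts only through the later stages, so its p-value is not counted as support for a difference.

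At E18.5, edgeR called 0.987% of genes higher and Igf1 alone among the members (adjusted p = 0.0417). Both E16.5 HSPC libraries had 0 Igf1 counts, so the gene passed the filter on low counts only through the later stages, and its call is not counted as support for a difference. The E18.5 HSPCs held 47 UMIs in 25 cells (4.69 CPM), and the level was at least 6.31-fold higher than 3 counts over the E16.5 cells would give. DESeq2 gave no adjusted p for it, and over all HP cells the difference turned to the other sign (-0.92 on the log2 scale), with 18.7 CPM in E16.5 library 1. P0 HSPCs held 61 Igf1 UMIs (1.95 CPM, adjusted p = 0.190, edgeR) and adult HSPCs 3. Igfbp4 was at 123 and 163 CPM in E16.5 HSPCs and 190.2, 216 and 196 CPM at E18.5, P0 and in adults (adult log2 0.69, adjusted p = 0.389, edgeR). Igfbp5 reached 49 UMIs at E18.5, which came from 4 cells.

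The HSPC code did not hold the same cells at each stage. E16.5 HSPC1 had 2 of 5 HSPC markers (Hlf and Cd34) and was led by Cd209a, Shisa8, Flt3 and the class II gene Cd74, whereas E18.5 HSPC2, P0 HSPC2 and HSPC3, and adult HSPC5 had 4 of 5, with Mecom and Procr. P0 HSPC4 had none and was led by the granule genes Prtn3, Mpo, Elane and Ctsg. Stage and the kind of cell so coded therefore cannot be told apart in these tests.

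Cells were also gated from antibody counts as phLT-HSCs (Sca-1+ CD135- CD48- CD150+) and phMPP2s (Sca-1+ CD135- CD48+ CD150+). These gates were drawn anew, so their cells need not be those the study gave these names. The study placed most of its phLT-HSCs with HSPCs at every stage but E16.5, and most of its E16.5 phMPP2s in Mono/Mast. Neither held for the adult phLT-HSCs and E16.5 phMPP2s gated here. In phLT-HSCs, Igf1r was at 21.7 CPM in E16.5 library 1 (10 cells) and 35.1 CPM in library 2 (28 cells), and reached 74.0 CPM for E18.5 (54.4 to 98.4, 33 cells), 83.1 CPM for P0 (69.0 to 99.3, 114 cells) and 86.3 CPM for adults (67.5 to 109, 134 cells). In phMPP2s it was at 8.08 and 38.4 CPM (10 and 64 cells), 41.3 CPM (32.6 to 51.5), 77.1 CPM (67.1 to 88.1) and 97.1 CPM (81.5 to 115). The later stages were thus above both E16.5 libraries in phLT-HSCs, whereas in phMPP2s E18.5 was close to E16.5 library 2 and P0 and adults were higher. The E16.5 library 1 values rested on 4 UMIs in phLT-HSCs and 3 in phMPP2s. In phLT-HSCs its interval (5.92 to 55.6 CPM) reached that of E18.5. The E18.5 phMPP2 value rested on the gate, at 60.7 CPM with a lower and 76.0 CPM with a higher antibody threshold. The gates did not hold the same kinds of cell either. Of the E16.5 phLT-HSCs 60.5% were in clusters coded TCell and 26.3% in Mono/Mast, whereas 69.7% of those at E18.5, 65.8% at P0 and 21.6% in adults were coded HSPC, and 38.8% of the adult ones Bcell. Of phMPP2s, 58.1% were coded TCell at E16.5, and 31.1%, 53.4% and 13.6% were coded HSPC at E18.5, P0 and in adults. Stage and the kind of gated cell therefore cannot be told apart. No test was made of these counts.

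Of the other receptors, Insr was at 16.3 and 7.02 CPM in phLT-HSCs of the E16.5 libraries and at 23.6, 21.3 and 14.4 CPM for E18.5, P0 and adults. In phMPP2s it was at 16.2 and 14.3 CPM and then at 16.9, 18.3 and 17.0 CPM, and in both gates the intervals of E16.5 and later stages overlapped. Igf2r was at 5.43 and 17.5 CPM in the E16.5 phLT-HSCs and at 11.0, 20.6 and 8.39 CPM later, and at 26.9 and 14.3 CPM in the E16.5 phMPP2s and 10.6, 15.4 and 3.54 CPM later, with the adult phMPP2 value below both E16.5 libraries by its interval. Igfbp4 varied widely between the E16.5 libraries, at 228 and 33.3 CPM in phLT-HSCs, and was at 165, 148 and 65.9 CPM at the later stages. Igfbp2 and Igfbp3 had 0 counts in all cells gated at the main antibody threshold. Igf1 was at 109 CPM (20 UMIs in 3 cells) and 0 counts in phLT-HSCs of the E16.5 libraries, beside 12.6 CPM at E18.5, and at 26.9 and 7.45 CPM beside 7.94 CPM in phMPP2s. In neither gate was the E18.5 level above that of both E16.5 libraries.

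**Figure D5:**
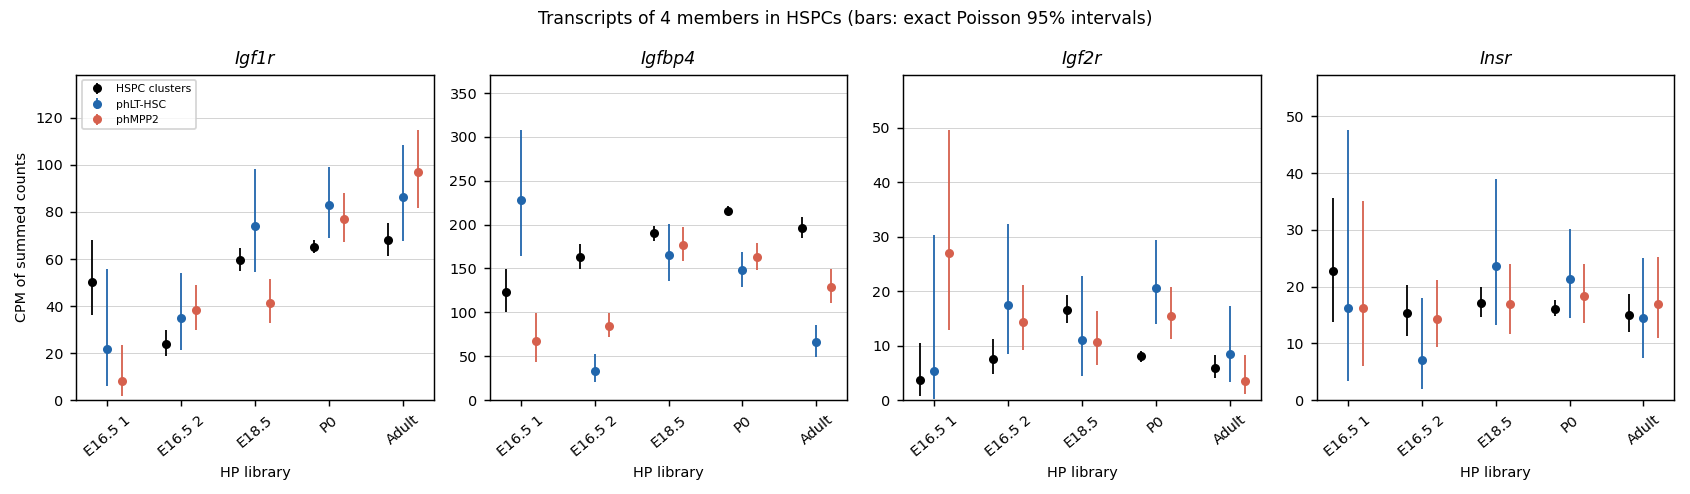
CPM of Igf1r, Igfbp4, Igf2r and Insr in the 5 HP libraries, in clusters coded HSPC (black) and in gated phLT-HSCs (blue) and phMPP2s (red). Bars are exact Poisson 95% intervals. Igf1r is lowest in the E16.5 libraries in all 3 cell sets, and Igfbp4 in phLT-HSCs differs between the E16.5 libraries (228 and 33.3 CPM).

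In the rest of the pathway, adult HSPCs were called lower than E16.5 HSPCs in H19 (250 UMIs at E16.5 and 1 in adults), Igf2bp2 (log2 -3.55) and Igf2bp3 (-2.03). Of all genes tested, 4.34% were called lower in adults and 3.59% higher. Igf2bp1, Stc1 and Stc2 were also called lower, but had 0 counts in adult HSPCs, so that they were at least 45.4-fold, 29.2-fold and 6.75-fold lower than at E16.5 if 3 counts are taken as the floor. Against E16.5 library 2 alone, these bounds were 48.2-fold, 22.1-fold and 2.27-fold, the last resting on 4 counts of Stc2, and against library 1 alone 34.8-fold, 56.6-fold and 23.9-fold. These 3 genes, H19 and Igf2bp2 (7 UMIs in adults) passed the filter on low counts only through the earlier stages, so their calls are not counted as support for a difference. Foxo3, a transcription factor that AKT holds out of the nucleus, rose (1.53, adjusted p = 0.00803, edgeR). Grb10 rose at E18.5 (2.57, adjusted p = 0.000471, edgeR) and by the same amount at P0, and H19 fell by 1.75 at E18.5 and by 3.69 at P0 on the log2 scale. In adults Grb10 was not called (log2 0.35). The E16.5 libraries held only 6 and 7 Grb10 UMIs and differed, at 7.19 and 2.18 CPM, beside 21.2 CPM at E18.5 and 20.4 CPM at P0. Of 12163 genes tested, 120 were called higher and 359 lower at E18.5, and 167 higher and 465 lower at P0. The H19 level differed between the E16.5 libraries, at 10.8 and 75.2 CPM, and E18.5 HSPCs (14.0 CPM) lay between them.

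Whether stages acted alike in the sorts was tested by the difference between stroma and HP in the change from E16.5, in which 4.97% of 19323 genes were called for adults, 0.124% for E18.5 and 0.595% for P0. Of the members, Igf1 was called for adults (log2 3.95 ± 1.16, SE, adjusted p = 0.0453, edgeR), as it was higher in adult than E16.5 stroma and lower in adult than E16.5 HP. Igf2 was called for P0 (4.33 ± 1.00, SE, adjusted p = 0.0373, edgeR), where stroma kept its E16.5 level and HP was at 0.0471 CPM. For E18.5, edgeR called 0 members, with Igf2 and Igfbp2 at an unadjusted p under 0.05. The share of all genes at that unadjusted level was not obtained, so nothing is drawn from it. This model left 1 residual degree of freedom, which came from the E16.5 HP pair. For Igf1 that pair was at 18.7 and 2.37 CPM, and the test was not repeated without either library. The pair also differed in its mix of cells, as given above, so its spread is not that of like samples. The Igf2 level in P0 HP rested on 6 UMIs, beside 12 and 97 in the E16.5 HP libraries. The part of free RNA in these values was not tested.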

How the data were processed

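Cells were sorted as HP or stroma, captured with 10x Genomics 3′ chemistry and sequenced as 9 transcript libraries with antibody libraries. Per the labels and methods, the authors aligned reads to mm10 with Cell Ranger 3.1.0, filtered cells and annotated them with Seurat 3.1.5 in R 4.0. The deposited counts are whole UMI counts per gene or antibody and cell, not normalized. Of the deposited cell table, 11 columns were not used. Groups were taken from GEO's labels.

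The genes and lists, and the tests on them, were chosen with earlier results of these data known. Counts were summed per library, or per annotation code and stage, and tested with edgeR 4.0.16 in R 4.3.3 (TMM scaling, filterByExpr, quasi-likelihood F test, Benjamini-Hochberg adjustment over all genes tested, threshold 0.05), with DESeq2 1.42.0 as an alternative. The comparison of the sorts had stage as a block and 4 residual degrees of freedom. The sums and intervals were computed in Python 3.11.15 (pandas 2.3.3, scipy 1.17.1, numpy 2.4.6) and plotted in matplotlib 3.10.9. Clusters under 50 cells were given no place in an order. Ratios between stages used genes with at least 50 counts in the higher library. For gates, antibody counts were centered log-ratio transformed within a library and a value over 1 was taken as positive. Shares of cells were compared after random thinning to 1000 UMIs, with Clopper-Pearson 95% intervals. A count of 0 was bounded by 3 counts. The test scripts were tested on simulated data. A marker was counted for a cluster when at least 2-fold higher than in the rest of its sort and stage. Named genes were the members, the pathway lists and, for each member, the 3 genes most like it among genes reaching 100 CPM in a cluster. Of the adaptors and signal carriers, 1 gene is not reported here. Doublets were not called again. Settings tried as alternatives were other scaling, filters, thresholds, cell sets and leaving out each library, and, chosen after seeing the data, removal of the shallower copies of shared barcodes, of stromal clusters coded UD, and of either E16.5 HP library or of E16.5 cluster UD2 from the ratio of P0 to E16.5 HP.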

Additional observations from a re-analysis of the deposited data

Results flagged for a closer look

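For 8 combinations of gene and stage, the change from E16.5 differed between stroma and HP by the test of the difference itself (edgeR quasi-likelihood test over 19323 genes, stroma minus HP on the log2 scale). Among the members these were Igf1 in adults (3.95, adjusted p = 0.0453) and Igf2 at P0 (4.33, adjusted p = 0.0373). Igf1 was at 195.7 CPM in E16.5 and 279.9 CPM in adult stroma, beside 18.7 and 2.37 CPM in E16.5 HP and 0.777 CPM in adult HP. Igf2 was at 130.2 CPM in E16.5 and 124.5 CPM in P0 stroma, beside 0.859 and 1.01 CPM in E16.5 HP and 0.0471 CPM (6 UMIs) in P0 HP.

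Among other pathway genes, Igfbp6 differed in adults (9.19, adjusted p = 4.45e-06) and at P0 (5.34, adjusted p = 0.00766), as it was at 34.1, 133 and 1429 CPM in E16.5, P0 and adult stroma and at 8.30 and 4.38, 0.628 and 0.372 CPM in HP. Stc1 (10.77, adjusted p = 0.00713) and Stc2 (6.83, adjusted p = 0.000563) differed in adults, where Stc2 was at 22.0 CPM in stroma and 0.304 CPM in HP and Stc1 had 0 counts in HP. H19 at P0 (5.16, adjusted p = 0.0238) was at 2750 CPM in stroma and 7.90 CPM in HP. Igfals at P0 (10.87, adjusted p = 0.0497) was at 4.08 CPM in stroma and had 0 counts in HP. The fitted values of Stc1 and Igfals, each set against a library at 0, are not measured ratios. Igfals had 0 and 19 counts in the E16.5 HP libraries, so its call is not counted as support for a difference. Each of these rests on 1 library per sort and stage other than E16.5 HP.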

How the results depend on the processing

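Of the alternatives for the main results, 95 kept the value and 24 moved it. A count was taken as kept when within 1.5-fold of the main count, and a level in gated cells when inside the main interval. By this rule the changes between the sorts given next are among those kept. Leaving out each library gave 7566 to 10920 genes called between the sorts (10640 with all) and 7 to 9 members called (9 with all). In the HSPC comparison the genes called in adults, at E18.5 and at P0 were 965, 479 and 632, against 378, 1 and 47 when all HP cells were summed and 396, 238 and 302 by DESeq2. Under both settings the members called fell from 1 to 0 in adults and from 1 to 0 at E18.5. With all HP cells the sign turned for Igf1 (-3.52 in adults, -0.92 at E18.5, -2.60 at P0), for Insr (0.64, 0.59 and 0.43) and for Igf2r at P0 (-0.25), and with DESeq2 size factors for Insr in adults (0.00482). At 1.5-fold, members past the fold went from 0 to 3 for E18.5 against E16.5 stroma and from 1 to 3 for P0 against E18.5. The share of all genes past 1.5-fold was not obtained, so these rises are not a result about the members. Without clusters coded UD, members past 2-fold for P0 against E18.5 went from 1 to 0. In HP, leaving out either E16.5 library took the members past 2-fold at P0 from 5 to 3. The last 2 settings were chosen after seeing the data. Of 10 members, 2 kept their highest HP cluster among cells of at least 1000 UMIs and 3 without the shallower copies of shared barcodes, an alternative chosen after seeing the data. With an antibody threshold of 0.75, Igf1r was at 66.7 CPM in adult and 18.5 CPM in E16.5 phLT-HSCs and 60.7 CPM in E18.5 phMPP2s. With 1.5 it was at 76.0 CPM in E18.5 phMPP2s (13 cells) and 16.7 CPM in E16.5 phMPP2s, the latter on 2 UMIs in 3 cells, with 0 counts in library 1 and 67.6 CPM in the 1 cell of library 2. Of 30 nearest genes, 16 were kept with a constant of 1 CPM and 7 over stromal clusters only, where Igf1 and Igf1r had an r of -0.23. The cause was not tested for any of these. No paired analysis was possible because the groups compared share fewer than 2 replicate numbers. The stage term of the comparison of the sorts matches libraries by stage and not by number.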
